A study of Homo sapiens with 6 samples.

Results

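TRPM8, PIP and 5 genes of the UGT2B family were followed in T47D breast cancer cells after knockdown of the transcription factor ELF5. These 7 of 26364 genes in the deposited table were taken by gene symbol: TRPM8, UGT2B15, UGT2B17, UGT2B11, UGT2B28, UGT2B7 and PIP. They were chosen with their own difference between ELF5 knockdown and control already known, so that difference is described here without a test. T47D is an established human line of luminal A breast epithelium. One group of 3 libraries received a control siRNA (siNC) and the other group of 3 received an siRNA against ELF5 (siELF5), with RNA taken 48 hr after transfection in both. Each group got a single siRNA product under its own catalogue name, so effects of the target and of the product cannot be told apart. No androgen, androgen antagonist or other hormone treatment is named for any library, so the androgen response of these genes was not measured here.

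TRPM8 encodes a cold- and menthol-gated cation channel that is best known from sensory neurons and from prostate epithelium, where androgens raise it. The UGT2B enzymes sit in the endoplasmic reticulum and attach glucuronic acid to steroids, which makes them water-soluble and ends their action. UGT2B15 and UGT2B17 act on dihydrotestosterone and its metabolites, UGT2B7 acts on a broad range of steroids, fatty acids and drugs, and UGT2B11 and UGT2B28 are less studied relatives. UGT2B17 and UGT2B28 are absent from some human genomes as common deletions. PIP, the prolactin-induced protein or GCDFP-15, is a small secreted protein of apocrine glands and breast fluid, and its gene is known to respond to androgens in breast cancer cells.

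The UGT2B genes are close copies, which bears on every UGT2B value, so the stretch of 60 coding bases with the most differences between UGT2B15 and UGT2B17, among stretches that align without gaps in all 5 genes, is shown. It covers bases 358 to 417 of the UGT2B15 coding sequence, from GENCODE 29 transcripts. Capitals in UGT2B15 mark the bases that differ in UGT2B17, and capitals in the other genes mark bases that differ from UGT2B15.
UGT2B15: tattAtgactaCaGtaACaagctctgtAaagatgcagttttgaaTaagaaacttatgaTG
UGT2B17: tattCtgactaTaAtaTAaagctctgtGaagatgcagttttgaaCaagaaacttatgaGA
UGT2B11: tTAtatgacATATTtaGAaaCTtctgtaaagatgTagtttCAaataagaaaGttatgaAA
UGT2B7: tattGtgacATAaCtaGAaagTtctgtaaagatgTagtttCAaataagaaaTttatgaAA
UGT2B28: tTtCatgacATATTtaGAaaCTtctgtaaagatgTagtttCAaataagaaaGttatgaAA
In these 60 bases UGT2B17 differed from UGT2B15 at 9 positions, UGT2B7 at 14, and UGT2B11 and UGT2B28 at 17 each. Over the whole coding sequence of 1590 bases, UGT2B15 and UGT2B17 differed at 55 bases (96.5% identity), with a longest identical run of 199 bases. UGT2B11 and UGT2B28 formed the other close pair, with 47 differing bases (97.0% identity). UGT2B15 was 84.7% identical to UGT2B11 and 85.0% identical to UGT2B7, and UGT2B11 was 91.8% identical to UGT2B7.

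**Figure D1:**
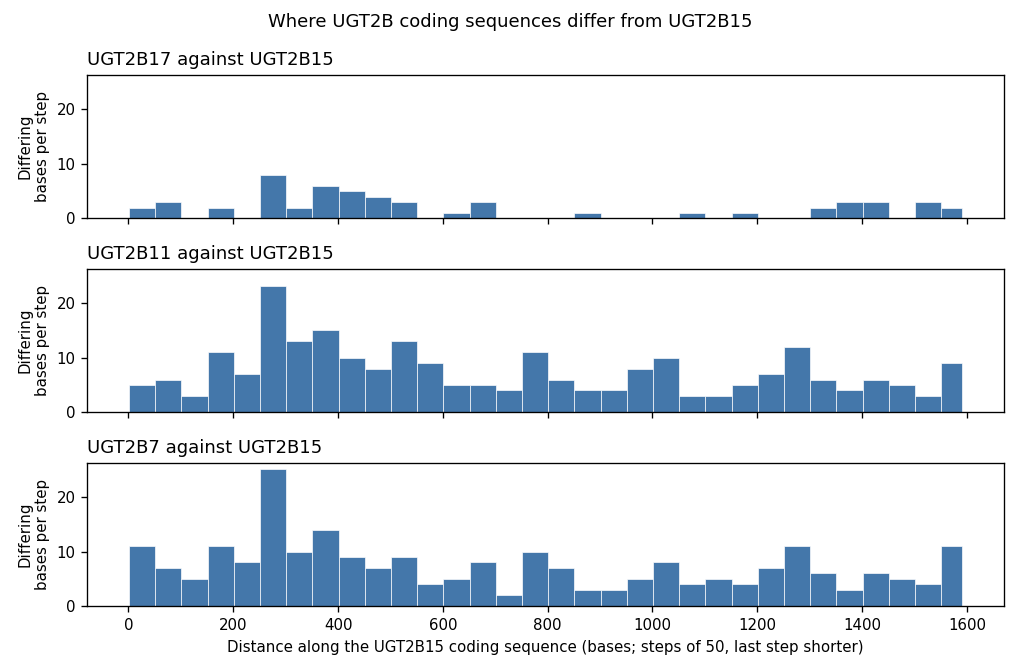
Number of bases that differ from UGT2B15 in each step of 50 bases (vertical axis) along the UGT2B15 coding sequence in bases (horizontal axis), for UGT2B17, UGT2B11 and UGT2B7. UGT2B17 differs at 55 bases in all, with its highest step at 8, and several steps hold no difference.

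How far such copies can share reads was measured by sliding windows of 50 and 100 bases over each gene's longest transcript. Of the 50-base windows, 47.3% in UGT2B11 and 35.7% in UGT2B28 occurred without a mismatch in a transcript of another gene. The figure was 27.8% in both UGT2B15 and UGT2B17, nearly all of it shared between those 2 genes. At 100 bases the shares were 17.4% for UGT2B11, 12.7% for UGT2B15 and UGT2B17, and 5.71% for UGT2B28. UGT2B7 had 6.75% at 50 bases and 0% at 100. TRPM8 had 1.49% and 0.398%, and PIP had 0% at both lengths. The read length and the handling of reads that fit several genes, not given in the sources used here, leave each UGT2B value uncertain by reads that could have come from, or been lost to, a copy. The library kit does not mark strand either, so a read from an opposite-strand gene over the same bases could not be told apart.

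All values below are normalised read counts, which are reads per gene divided by a size factor for each library. Libraries held 66.8 to 83.7 M assigned reads, and 18767 to 19194 genes had a read. ELF5 itself fell from 13094 ± 164 to 3680 ± 43.7 (SD, n = 3 per group), which is -1.83 on the log2 scale (SE 0.0328) with an adjusted p of 3.26e-12 by limma. All 8 luminal markers looked at (keratins 8, 18 and 19, EPCAM, CDH1, ESR1, GATA3 and FOXA1) were high, with means from 14908 to 219676. Their sum, mostly KRT8, KRT19 and KRT18 with means of 219676, 143281 and 103953, was 648075 to 696452 in siNC and 580713 to 607403 in siELF5. The sum was lower without overlap, but not every marker fell. By limma ESR1, FOXA1 and GATA3 rose by 0.45, 0.31 and 0.15 on the log2 scale. Changes of the keratins, EPCAM and CDH1 are not given singly here. Hepatocyte and prostate markers were examined because liver and prostate are other main sites of these genes. None of the 6 hepatocyte markers reached a mean of 10, with APOA1, APOB and TTR under 1, and their sum ran from 10.1 to 16.6 in siNC and from 4.53 to 18.5 in siELF5. Of 5 prostate markers, KLK3, KLK2 and HOXB13 were under 1, and the sum was 345 to 393 in siNC and 316 to 341 in siELF5. Of the other lists, PTPRC of 4 leukocyte markers and PECAM1 and CDH5 of 3 endothelial markers were under 1, with sums of 114 to 136 and 26.4 to 37.8 in siNC and of 144 to 191 and 12.3 to 14.5 in siELF5. The sum of 6 stromal markers, mostly COL1A1, was 4291 to 5477 in siNC and 3440 to 3948 in siELF5. The sum of 5 basal or myoepithelial markers, with KRT5 and KRT14 under 10, was 580 to 627 in siNC and 1004 to 1047 in siELF5. The part of these markers in the differences below was not tested.

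Per kilobase of transcript, which makes genes comparable, the 7 genes covered a very wide range of levels in the control cells. PIP stood at 34444 ± 1097 per kb (SD, n = 3), above 99.5% of the tested genes. UGT2B15 was next at 60.3 ± 7.29, followed by TRPM8 at 21.5 ± 2.94 and UGT2B11 at 21.1 ± 2.40. UGT2B17 stood at 10.7 ± 8.47, UGT2B7 at 3.29 ± 1.88 and UGT2B28 at 0.921 ± 0.808. TRPM8 and UGT2B11 could not be ordered, since their libraries overlapped, and the siNC replicate 1 value of UGT2B17, 20.5, lay within the UGT2B11 range of 18.4 to 23.0. UGT2B7 and UGT2B28 overlapped as well. UGT2B15, the highest of the family, lay above only 21.5% of the tested genes, so the UGT2B transcripts and TRPM8 were scarce in this line while PIP was among its most abundant. In siELF5 the order among the scarce genes differed: UGT2B11 was at 19.7 ± 5.13 per kb, UGT2B15 at 12.2 ± 1.88, TRPM8 at 1.98 ± 0.642 and UGT2B17 at 1.27 ± 0.750, with PIP still highest at 19635 ± 828. The libraries of UGT2B11 and UGT2B15 did not overlap there, while those of TRPM8 and UGT2B17 did.

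Of the 7 genes, 4 (TRPM8, UGT2B15, UGT2B17 and PIP) were lower in every siELF5 library than in any siNC library, and no member was higher in this way. Across the 16032 genes with a mean of at least 10, 28% were lower without overlap and 55.9% were separated in either direction. By limma with an adjusted p under 0.05, 47.1% of those genes were called, 23.8% higher and 23.3% lower, and 1.07% were both called and at least 2-fold lower. Since the members were picked on this contrast, nothing is read from their count beside these shares. UGT2B28 and UGT2B7 were below the minimum mean of 10, so 5 of the 7 genes entered the fit.

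**Figure D2:**
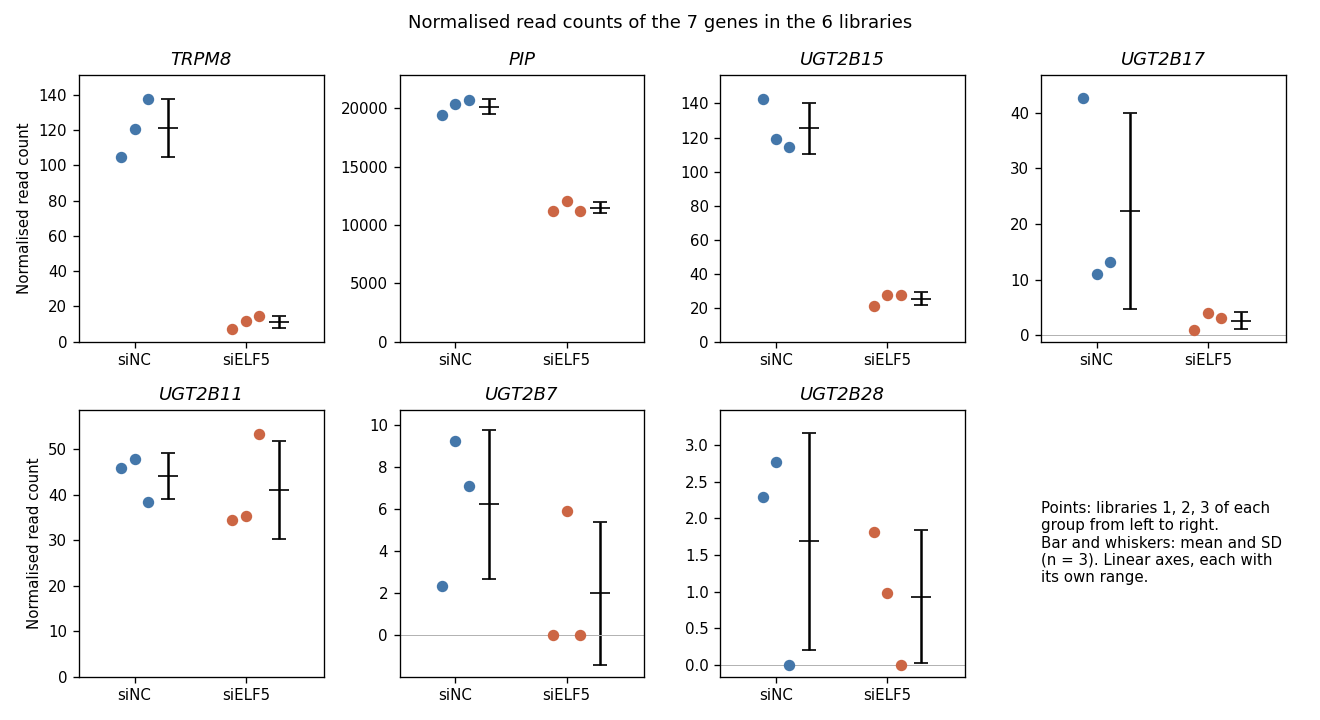
Normalised read count (vertical axis, linear, its own range for each gene) of the 7 genes in the 3 siNC and 3 siELF5 libraries (horizontal axis), with mean and SD beside the points. TRPM8, PIP, UGT2B15 and UGT2B17 show no overlap of the groups, while UGT2B11, UGT2B7 and UGT2B28 overlap, and siNC replicate 1 lies apart for UGT2B17 at 42.5.

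TRPM8, the channel gene, showed the largest relative difference of group means among the 7 genes. UGT2B17 came close, with siELF5 at 11.8% of siNC on few reads (SE 0.641 on the log2 scale), so they could not be ordered. The normalised read count of TRPM8 was 105, 121 and 138 in siNC replicates 1, 2 and 3. In siELF5 replicates 1, 2 and 3 it was 7.24, 11.8 and 14.4. All 3 knockdown libraries lay far under the lowest control, and the highest of them reached 11.9% of the control mean. The means were 121 ± 16.5 and 11.1 ± 3.61 (SD, n = 3), so siELF5 held 9.20% of the siNC level, 10.9-fold lower. In log2(value + 1), where differences of scarce genes come out smaller than they are, the difference was -3.37 (SE 0.294). These values rest on 358 reads in the 3 siNC libraries together (95% exact Poisson interval 322 to 397) and on 34 reads in the 3 siELF5 libraries (23.5 to 47.5), intervals that cover counting error only. In bulk RNA, fewer cells with TRPM8 and less TRPM8 RNA per cell cannot be told apart, and the same holds for each gene below.

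The siRNA groups also differed in how library values moved with the GC content of transcripts. A GC score per library, the median log2 deviation of the most GC-rich genes relative to genes of middle GC content, ran from -0.409 to -0.0754 in siNC and from 0.225 to 0.284 in siELF5, without overlap. TRPM8 has a GC content of 43.8%, and after a per-library correction for GC content its log2 difference was -3.32. With the GC score itself as a covariate, which takes up part of the group difference, it was -3.95. Leaving out any single library gave -3.56 to -3.11.

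UGT2B15 was the most abundant UGT2B gene in the control cells and the next in line by size of difference among genes with ample reads. Its normalised read count was 143, 119 and 114 in siNC and 20.8, 27.5 and 27.7 in siELF5, in replicate order. The knockdown libraries were close together and all far below the controls. The means of 125 ± 15.1 and 25.3 ± 3.91 (SD, n = 3) put siELF5 at 20.2% of siNC, with a log2 difference of -2.27 (SE 0.222). The reads behind them were 366 in siNC (95% Poisson interval 329 to 405) and 78 in siELF5 (61.7 to 97.3). The GC-corrected value was -2.23 and the value with the GC score as a covariate -1.87.

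UGT2B17, its near-identical copy and the other main enzyme of androgen glucuronidation, was lower too but rests on few reads. It had 37, 12 and 13 reads in siNC and 1, 4 and 3 reads in siELF5, that is normalised read counts of 42.5, 11.1 and 13.2 against 0.906, 3.93 and 3.08. All knockdown libraries lay below all controls, and siNC replicate 1 stood apart from the other controls. Its Poisson interval in reads, 26.1 to 51.0, did not meet those of siNC replicate 2 (6.20 to 21.0) and siNC replicate 3 (6.92 to 22.2). The means were 22.3 ± 17.6 and 2.64 ± 1.56 (SD, n = 3), with siELF5 at 11.8% of siNC and a log2 difference of -2.53 (SE 0.641). Without siNC replicate 1, siELF5 stood at 21.8% of a control mean of 12.1, and the log2 difference was -1.96. The difference was -1.68 with a pseudocount of 5 and -0.42 with the GC score as a covariate.

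Because reads can pass between UGT2B15 and UGT2B17, the pair was also summed. The sum was 185, 130.0 and 128 in siNC and 21.7, 31.4 and 30.8 in siELF5. The groups did not overlap, siELF5 stood at 19.0% of siNC, and the log2 difference was -2.35 (SE 0.240), between those of its members.

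UGT2B11 was the only UGT2B gene with ample reads whose groups overlapped. Its normalised read count was 46.0, 48.0 and 38.5 in siNC and 34.4, 35.3 and 53.4 in siELF5. The highest of all 6 values was a knockdown library. The means were 44.1 ± 5.01 and 41.0 ± 10.7 (SD, n = 3), a log2 difference of -0.13 with an SE of 0.262, less than its own error. Reads were similar in number too, 130 in siNC and 126 in siELF5. Without siELF5 replicate 3 the difference was -0.33 and the groups no longer overlapped, and with the GC score as a covariate it was 0.30. Summed with UGT2B28, the closest to it in coding sequence, the value was 91.6% of siNC. That sum leaves out other transcripts that share windows with UGT2B11. Of its 50-base windows, 22.4% occurred in UGT2B25P, 18.1% in UGT2B28 and 15.8% in AC111000.4. At 100 bases the shares were 11.2% for AC111000.4, 6.49% for UGT2B25P and 0.855% for UGT2B28. How many UGT2B11 reads came from such transcripts was not tested.

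UGT2B7 and UGT2B28 were at the edge of detection. UGT2B7 had 2, 10 and 7 reads in siNC and 0, 6 and 0 in siELF5, with overlapping groups and means of 6.20 ± 3.54 and 1.96 ± 3.40 normalised read counts (SD, n = 3). Its log2 difference of -1.77 depended on the constant added before taking logs, at -2.34 with 0.5 and -0.73 with 5, and a library with 0 reads still allows up to 3. UGT2B28 had 2, 3 and 0 reads in siNC and 2, 1 and 0 in siELF5, at or under that limit throughout, and no fold change is given for it. Of the 2 UGT2B genes outside the 7, UGT2B10 had 16 reads in siNC and 10 in siELF5, and UGT2B4 had 0 reads in all 6 libraries.

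As a family, the 5 UGT2B genes summed to 236, 190.0 and 173 in siNC and 58.0, 73.6 and 84.2 in siELF5. The lowest control lay far above the highest knockdown library. Means were 199.6 ± 32.4 and 71.9 ± 13.2 (SD, n = 3), with siELF5 at 36.0% of siNC and a log2 difference of -1.46 (SE 0.203). The make-up of the pool differed as well. UGT2B15 supplied 61.5% ± 3.59 of all UGT2B counts in siNC and 33.9% ± 1.49 in siELF5, while UGT2B11 supplied 21.8% ± 2.88 and 54.6% ± 9.09 (SD, n = 3). The share of UGT2B17 was 10.2% ± 6.29 in siNC and 3.34% ± 1.72 in siELF5, and its groups did not overlap. The larger share of UGT2B11 went with a level that stayed within its spread, while UGT2B15 had the lower level.

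**Figure D3:**
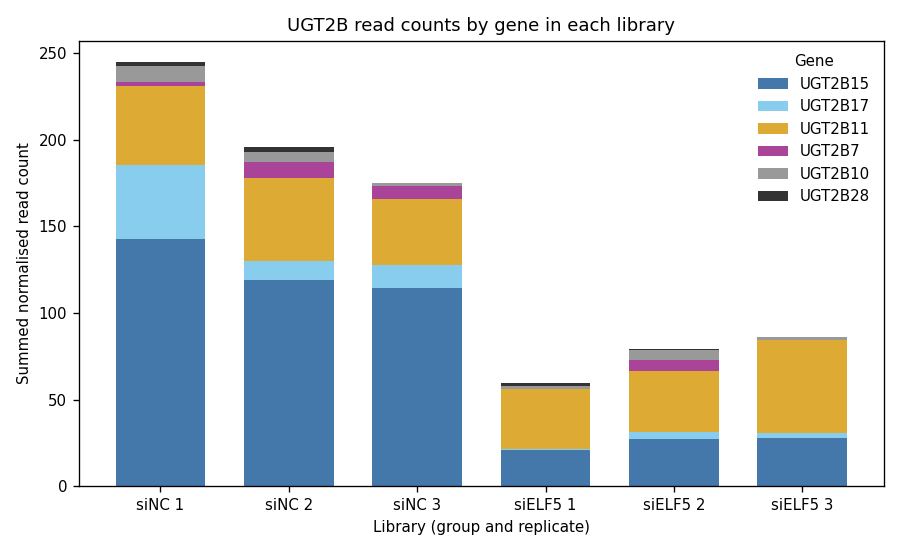
Summed normalised read count of the UGT2B genes (vertical axis, linear from 0) in each of the 6 libraries (horizontal axis), with 1 colour per gene. UGT2B15 is the tallest segment in each siNC bar and UGT2B11 in each siELF5 bar, and the UGT2B11 segment is of similar height in both groups.

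PIP, the apocrine secretory gene, was by far the most precisely measured member. Its normalised read count was 19437, 20331 and 20681 in siNC and 11211, 12046 and 11203 in siELF5. The spread within a group was small against the gap between groups. The means were 20149.5 ± 642 and 11487 ± 484 (SD, n = 3), which puts siELF5 at 57.0% of siNC with a log2 difference of -0.81 (SE 0.0373). The GC-corrected value was -0.77 and the value with the GC score as a covariate -0.97, and leaving out any single library gave -0.85 to -0.79. In counts the PIP difference was far larger than those of the other 6 genes together, though its relative size was the smallest of the 4 genes whose groups did not overlap. In the authors' deposited table the log2 fold changes were -3.46 for TRPM8, -2.31 for UGT2B15, -3.08 for UGT2B17, -0.11 for UGT2B11 and -0.81 for PIP.

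**Figure D4:**
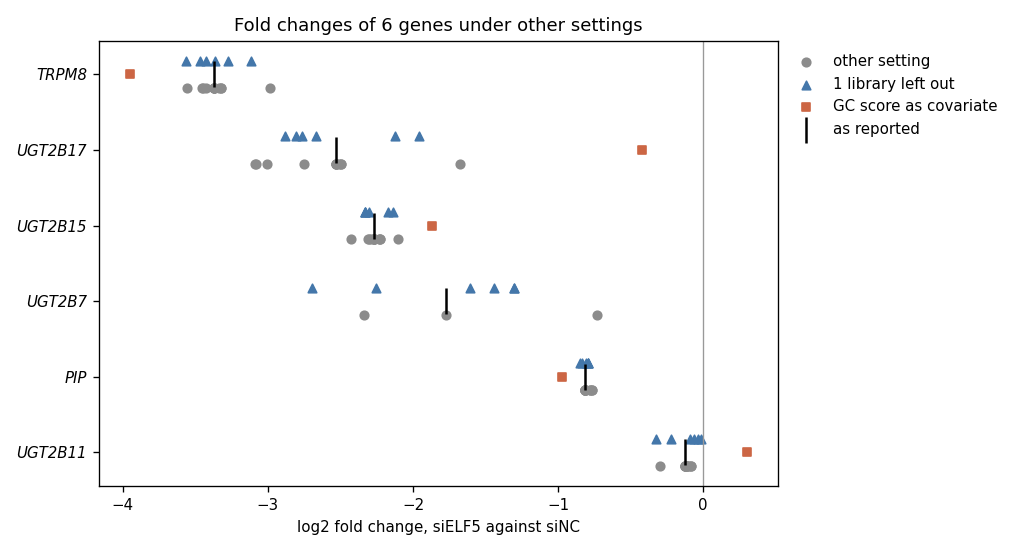
Log2 fold change of siELF5 against siNC (horizontal axis) for 6 of the genes (vertical axis) as reported, with 1 library left out, with the GC score as a covariate and under the other settings. TRPM8 lies between -3.95 and -2.98 and UGT2B15 and PIP stay below 0 throughout, while UGT2B17 reaches -0.42 with the covariate and UGT2B11 lies on both sides of 0.

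The promoters of the genes were compared because TRPM8, UGT2B15 and PIP were lower together and UGT2B11, a relative of UGT2B15, was not. RefSeq promoters (GRCh38.p14) were found for 5 of the 7 genes: TRPM8, UGT2B15, UGT2B11, UGT2B7 and PIP. TRPM8 has 6 promoters in that set and each of the others has 1. What is said of the TRPM8 promoter below holds for the 1 printed, and its other promoters are not described. The counts are on hg19, so these positions serve the sequences only. The 250 bases before the start lie at chr2:233917123-233917372 on the plus strand for TRPM8, chr4:68670653-68670902 on the minus strand for UGT2B15, chr4:69214749-69214998 on the minus strand for UGT2B11 and chr7:143131827-143132076 on the plus strand for PIP. Each is written 5′ to 3′ along its gene, and capitals mark matches, on either strand, to the motifs named below.
TRPM8: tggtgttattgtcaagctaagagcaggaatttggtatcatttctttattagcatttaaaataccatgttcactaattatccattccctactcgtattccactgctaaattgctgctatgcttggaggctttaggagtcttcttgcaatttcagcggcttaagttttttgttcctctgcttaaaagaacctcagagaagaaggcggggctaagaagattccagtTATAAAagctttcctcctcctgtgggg
UGT2B15: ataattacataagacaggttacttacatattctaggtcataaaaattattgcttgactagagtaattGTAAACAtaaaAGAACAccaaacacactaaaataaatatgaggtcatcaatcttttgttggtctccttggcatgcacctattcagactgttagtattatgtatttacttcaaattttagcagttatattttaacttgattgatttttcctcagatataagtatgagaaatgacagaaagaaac
UGT2B11: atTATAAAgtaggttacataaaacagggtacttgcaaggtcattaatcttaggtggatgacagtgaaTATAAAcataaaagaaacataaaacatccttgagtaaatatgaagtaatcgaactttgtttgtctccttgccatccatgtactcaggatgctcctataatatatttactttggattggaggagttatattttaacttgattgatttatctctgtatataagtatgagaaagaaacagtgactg
PIP: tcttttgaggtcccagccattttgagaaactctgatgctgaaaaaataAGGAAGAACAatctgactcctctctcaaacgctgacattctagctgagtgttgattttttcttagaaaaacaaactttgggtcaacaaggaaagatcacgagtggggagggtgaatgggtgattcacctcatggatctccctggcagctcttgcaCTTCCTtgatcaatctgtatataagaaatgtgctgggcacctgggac
The motifs searched, on both strands of 300 bases around each start, were AGAACA (a steroid hormone receptor half-site), AGGAAG (an ETS core, the family of ELF5), TGTTTAC (forkhead), GTTAAT (an HNF1 half-site), and TATAAA as the letters of the core promoter box. The ETS letters were found in PIP alone of the 5, at -202 and -47, and in 33.6% of all 35116 promoters of that length. The steroid receptor half-site was found in UGT2B15 at -172 and in PIP at -198, where it overlaps the ETS letters at -202, and in 14.8% of all promoters. The forkhead letters were found in UGT2B15 at -183 and in 3.42% of all promoters. TATAAA was found in TRPM8 at -27 and in UGT2B11 at -248 and -183, against 11.5% of all promoters. The HNF1 half-site was in none of the 5 and in 6.88% of all promoters, and UGT2B7 held none of the 5 motifs. These are matches of letters only, and binding was not measured. Over the 250 bases UGT2B15 and UGT2B11 were 70% identical and UGT2B11 and UGT2B7 63.0%, against 43.4% to 47.5% for pairs that included TRPM8 or PIP. In 3′ UTRs, the letters CACTAAC and ACTAACA, which are not among the 5 promoter motifs, were also counted. Either was found in 18.2% of 3532 searched genes that fell and in 11.3% of 13857 searched tested genes. They were found in 0 of the 7 members. The genes that fell are part of the tested genes, and 3′ UTR length was not taken into account. What lies behind the gap between these shares was not tested.

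The genomic neighbours were read off the RefSeq order, 5 genes on each side of each locus. Next to TRPM8, 5 of 10 neighbours were tested and 4 fell by limma, among them HJURP by 0.12, SH3BP4 by 0.12 and AGAP1 by 0.20 on the log2 scale. The call for SH3BP4 was lost when siNC replicate 2 or 3 or siELF5 replicate 1 or 2 was left out, with a limma adjusted p from 0.0596 to 0.152. Beside the UGT2B cluster, TMPRSS11E, a serine protease gene of squamous epithelia, fell from 73.0 ± 11.1 to 21.7 ± 9.54 (SD, n = 3). Its log2 difference was -1.79 (SE 0.332) with a limma adjusted p of 0.000718, and -1.24 with 0.452 when the GC score was a covariate. The other tested gene there, YTHDC1, stood at -0.057 and did not pass, and 7 of the 10 genes there had no read. Beside PIP, 2 of 5 tested neighbours fell, GSTK1 by 0.16 and TMEM139 by 0.30 on the log2 scale. With the GC score as a covariate none of the 7 neighbours kept its call. Over all tested genes 23.3% fell by limma.

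The 3 genes with the most similar profile over the 6 libraries were looked up for each member with a mean of at least 50, by the Euclidean distance between centred log2(value + 1) profiles among 13356 candidates. For TRPM8 these included NBPF13P at a distance of 0.892 and KRT4, which encodes a keratin found in stratified epithelium, at 1.222. For UGT2B15 they were VTCN1, which encodes the immune checkpoint protein B7-H4, at 0.493, CYP4Z2P at 0.511 and SOX2, which encodes a pluripotency transcription factor, at 0.525. For PIP they were WDR45B at 0.0779, RNF43 at 0.0858 and CCSER1 at 0.0963. NBPF13P and CYP4Z2P are pseudogenes with close copies, so their counts are uncertain. The distances describe the libraries at hand, in which every listed gene shares the split between siNC and siELF5.

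Steroid receptor genes and their cofactors moved in both directions. FOXA1, the pioneer factor that opens chromatin for steroid receptors, rose by 0.31, ESR1, the oestrogen receptor gene, rose by 0.45, and PGR, the progesterone receptor gene, rose by 0.22. NR3C1, the glucocorticoid receptor gene, stood at -0.15 with a limma adjusted p of 0.0425, which was 0.0888 to 0.150 without siNC replicate 1, siNC replicate 2, siELF5 replicate 1 or siELF5 replicate 3. Of 33 tested steroid receptors and cofactors, 13 rose, 9 fell and 11 did not pass. The called share was 66.7%, beside 47.1% of all tested genes. The median was 0.087 beside 0.0015 over all tested genes, and 14 rose and 6 fell with columns scaled to equal totals. NCOA4, a nuclear receptor coactivator and ferritin receptor, rose by 0.33, and the chaperone genes HSP90AB1 and HSP90AA1 fell by 0.27 and 0.28. With the GC score as a covariate ESR1 and NCOA4 kept their calls, and FOXA1, PGR and both chaperone genes did not pass, at 0.16, 0.24, -0.17 and -0.17.

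Other genes known to be induced by androgen in prostate cells moved in both directions. Of 35 tested, 8 rose, 8 fell and 19 did not pass, with a median of -0.0025. The called share of 45.7% was close to the 47.1% of all tested genes (23.8% higher and 23.3% lower). With equal column totals 11 rose and 5 fell, with the GC correction 12 rose and 6 fell, without siELF5 replicate 1 8 rose and 5 fell, and without siELF5 replicate 3 9 rose and 5 fell. ZBTB16, a zinc finger repressor, fell from 62.9 ± 5.43 to 17.5 ± 2.64 (log2 -1.79), NDRG1, a stress-responsive gene, from 791 ± 150 to 319 ± 48.4 (-1.30), and ACPP, prostatic acid phosphatase, from 61.0 ± 15.1 to 25.1 ± 3.92 (-1.24). TSC22D3, the glucocorticoid-induced leucine zipper gene, fell by 0.52. In the other direction STEAP4, a metalloreductase gene, rose from 107 ± 30.0 to 241 ± 28.2 (1.19), PPAP2A rose by 0.74, TMPRSS2 by 0.64 and MPHOSPH9 by 0.52. The calls of ZBTB16, NDRG1, ACPP and TMPRSS2 were lost with the GC score as a covariate, at log2 differences of -1.40, -0.55, -0.40 and 0.52.

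PIP is also a marker of apocrine differentiation, and 13 of 26 tested genes of that program rose. Of the others 6 fell and 7 did not pass, so 73.1% were called, beside 47.1% of all tested genes. The median was 0.35, and 0.22 with the GC correction. AGR2, a disulphide isomerase of secretory cells, rose from 78654 ± 519 to 116184 ± 3470 (SD, n = 3), by 0.56 on the log2 scale. The secreted proteins AZGP1 and TFF3 rose by 0.58 and 0.71, and CLCA2 rose by 0.93. On the side of PIP were CYP4Z1, a fatty acid hydroxylase gene, which fell by 1.77, KMO of the kynurenine pathway, which fell by 0.84, and SERHL2, which fell by 0.62. CYP4Z1 has a close pseudogene copy, CYP4Z2P, so its value is uncertain. The calls of CYP4Z1, KMO, SERHL2 and CLCA2 were lost with the GC score as a covariate, at log2 differences of -1.55, -0.61, -0.74 and 1.19.

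Most other UDP-glycosyltransferase genes had no reads. Of 17 listed, 13 had no read in any library, all UGT1A genes among them. The UGT1A genes share their last exons, and no source used here says how reads in shared exons were counted. Only UGT3A2 was tested, and it rose from 907 ± 31.0 to 1419.7 ± 49.3 (SD, n = 3), by 0.65 on the log2 scale. Of 15 tested genes that make UDP-glucuronic acid or carry or split glucuronides, 5 rose, 3 fell and 7 did not pass, with a median of 0.056. The called share was 53.3%, beside 47.1% of all tested genes. ABCC5, an export pump of conjugates and nucleotides, fell from 14618 ± 479 to 6110.1 ± 325 (SD, n = 3), a log2 difference of -1.26, and PGM2 fell by 0.41. SLC35D1, the carrier that brings UDP-glucuronic acid into the endoplasmic reticulum, rose by 0.45 and GUSB, the lysosomal enzyme that removes glucuronic acid, by 0.24. PGM2 and GUSB did not pass with the GC score as a covariate, at -0.36 and 0.22.

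Among 32 tested genes of steroid metabolism, 11 rose, 3 fell and 18 did not pass, with a median of 0.0071. The called share was 43.8%, beside 47.1% of all tested genes. The split was 12 and 1 with equal column totals, 8 and 4 with the GC correction, and 8 and 1 without siELF5 replicate 1. STS, the sulphatase that frees oestrone and DHEA from their sulphates, fell from 1167 ± 65.1 to 571 ± 46.8 (SD, n = 3), by 1.03 on the log2 scale. CYP1B1, an oestrogen hydroxylase, rose by 0.82, HSD17B12 by 0.37, HSD17B8 by 0.47 and STARD3, a cholesterol transporter, by 0.41. SRD5A2, a steroid 5-alpha-reductase that makes dihydrotestosterone, rose from 24.6 ± 3.48 to 42.9 ± 5.76 (limma adjusted p = 0.0338). CYP1A1 and HSD17B7 differed by -0.66 and -0.16 (limma adjusted p = 0.0483 and 0.0388). The calls of SRD5A2 and CYP1A1 were lost without siNC replicate 1 or 2 or siELF5 replicate 1 or 3, at an adjusted p of up to 0.111 and 0.159, and that of HSD17B7 without siNC replicate 1 or 3 or siELF5 replicate 1 or 2, at up to 0.116. With the GC score as a covariate these 3, HSD17B8 and STARD3 did not pass, at -0.51 for CYP1A1, -0.10 for HSD17B7, 0.34 for SRD5A2, 0.22 for HSD17B8 and 0.042 for STARD3.

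Many relatives of TRPM8 were expressed too, some at far higher counts. Of 18 tested TRP channels and TRPM8 partners, 2 rose, 4 fell and 12 did not pass, with a median of -0.070. The called share was 33.3%, beside 47.1% of all tested genes. TRPV6, an epithelial calcium channel, fell from 9910 ± 72.9 to 7543 ± 512 (log2 -0.40), and TRPM7, a magnesium-permeable channel fused to a kinase, by 0.12. TCAF1 and TCAF2 encode proteins that bind TRPM8 and affect its transport to the membrane. TCAF1 fell from 15255.5 ± 410 to 11430.1 ± 106 (-0.42), and TCAF2 stood at -0.17 with a limma adjusted p of 0.0287, which was 0.0668 to 0.0924 without siNC replicate 1, siNC replicate 2, siELF5 replicate 1 or siELF5 replicate 2. TRPV4, an osmosensitive calcium channel, rose from 38.6 ± 8.52 to 98.0 ± 4.30 (1.34) and MCOLN3 by 0.20, the latter with an adjusted p of 0.0503 without siELF5 replicate 1. TRPM2, TRPM4, TRPM6, TRPC1, TRPC6, TRPV1, TRPV3, TRPV5, MCOLN1, MCOLN2, PKD2 and PKD2L2 did not pass, with log2 differences from -0.36 in PKD2L2 to 0.42 in TRPM6. TRPV6, TRPV4 and TCAF1 kept their calls with the GC score as a covariate, TRPM7, MCOLN3 and TCAF2 lost theirs at -0.15, 0.15 and -0.091, and TRPM2 passed at -0.44, as it did at -0.24 with the GC correction.

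**Figure D5:**
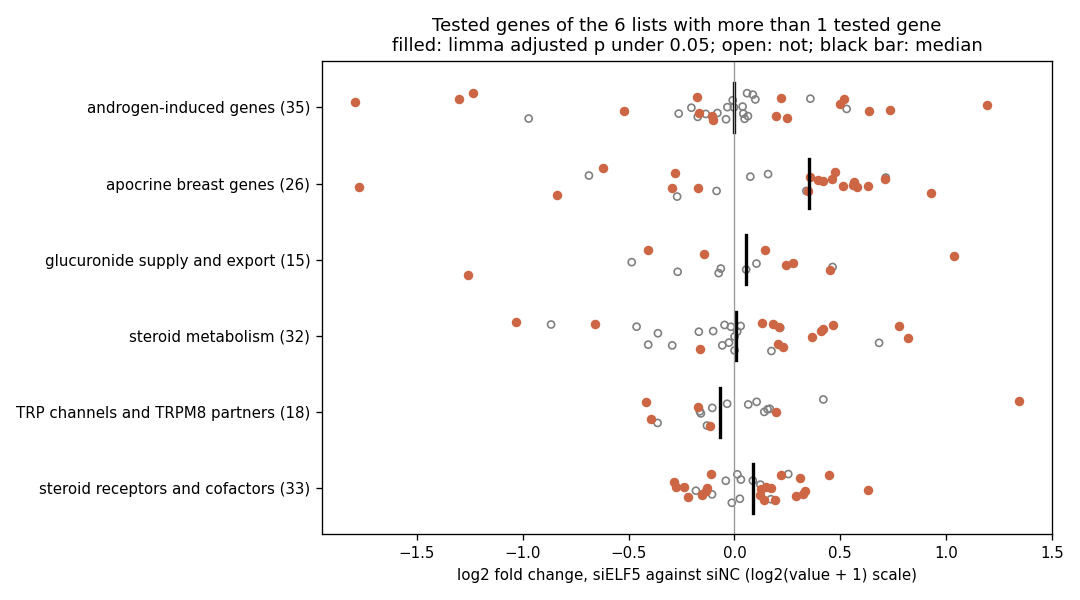
Log2 fold change of siELF5 against siNC (horizontal axis) for the tested genes of 6 lists (vertical axis), filled where the limma adjusted p was under 0.05, with the list median as a black bar. Medians lie from -0.070 to 0.087 except for the apocrine breast genes at 0.35.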

How the data were processed

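RNA-seq was done on 6 T47D libraries, 3 siNC and 3 siELF5, grouped by sample title. The labels do not say whether replicates came from separate cultures. P-values therefore reflect only how these 6 libraries vary, and that variation may be technical. The 7 genes and all gene lists were chosen with earlier results of these data known.

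STAR 2.6, Subread, featureCounts 1.6.3, DESeq2 1.22.1 and the build hg19 are named, per the submitters' processing notes, with options not given in the sources used here. Per-library deposited values are signal values, and their spacing (100% of values whole within 1e-06) shows gene counts divided by 1 size factor per library, so reads were recovered. DESeq2 also gave the deposited log2 fold change, test score, p-value and adjusted p, per the file headers. They are the authors' own and entered no test here.

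Differences were fitted with limma 3.58.1 (R 4.3.3, intensity trend, two-sided, no covariate) on log2(value + 1) for 16032 genes with a mean of at least 10, with Benjamini-Hochberg adjustment over all of them and a threshold of 0.05. It was tested on simulated counts for this comparison over 16041 genes, where it recovered 98% of genes changed by 1 on the log2 scale in either direction and 100% of those changed by 2, and called 0.0442% of unchanged genes. The simulated counts had the same dispersion for all genes, fewer changed genes than were called here and no GC shift between groups. The simulated rates therefore need not hold for these libraries. At the depth of 66.8 to 83.7 M reads, counting error matters for low genes only. Alternatives were other pseudocounts, filters, scalings, edgeR 4.0.16 and DESeq2 1.42.0 on the recovered reads, a replicate block, GC terms and leaving out each library.

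Named genes were the 7 members, ELF5, FOXA1, ESR1, PGR and NR3C1; from each list up to 4 called genes with the smallest adjusted p, and from 3 lists up to 3 more with the largest change each way; every tested UDP-glycosyltransferase and TRP channel; called neighbours; and the nearest profiles. A few genes chosen by this rule were left out of the text. YTHDC1 was named after its values were seen. GC content, found for 96.5% of tested genes, transcripts and coding sequences came from GENCODE 29 (GRCh38), and promoters and gene order from RefSeq (GRCh38.p14), while the counts are on hg19.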

Additional observations from a re-analysis of the deposited data

How the results depend on the processing

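Of the 7 genes, TRPM8, UGT2B15, UGT2B17, UGT2B7 and PIP were lower in siELF5 under every setting run for them, while UGT2B11 changed sign with the GC score as a covariate. With a pseudocount of 5 TRPM8 stood at -2.98 and UGT2B17 at -1.68. UGT2B17 was at -3.09 with quantile scaling, -3.00 by edgeR and -3.08 by DESeq2, and ranged from -2.88 to -1.96 with 1 library left out, as UGT2B7 did from -2.70 to -1.31. The UGT2B sum ranged from -1.58 to -1.32 with 1 library left out, an alternative chosen after seeing the data, as were the sums of close pairs.

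The genes past the threshold, 7559, numbered 7578 by edgeR, 7292 by DESeq2 and 6164 to 7312 with 1 library left out. When the library GC score was a covariate, which overlaps the group difference and widens the errors, 1153 genes passed, with 5 androgen-induced genes, 7 apocrine breast genes, 2 of glucuronide supply and export, 5 of steroid metabolism and 3 steroid receptors and cofactors. Steroid metabolism had 9 calls without the intensity trend and 9 to 14 with 1 library left out, and the cause was not tested. With 1 library left out the calls were 13 to 15 for androgen-induced genes, 19 for apocrine breast genes, 7 to 8 for glucuronide supply and export, 4 to 8 for TRP channels and TRPM8 partners and 16 to 23 for steroid receptors and cofactors.

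Of 71 genes taken by the naming rule other than the members and ELF5, 30 kept their direction but lost their call with the GC score as a covariate, NR3C1 lost its call and turned, and 63 to 71 kept their side of the threshold under each other setting that gave them a value. Outside that covariate and the left-out libraries, the calls lost at some setting included those of CYP1A1, HSD17B7, NR3C1, SH3BP4, SRD5A2 and TCAF2. With the GC score as a covariate the sign turned for NR3C1 (0.022), TRPM4 (-0.34), TRPM6 (-0.19), TRPV5 (-0.27), MCOLN1 (-0.16) and MCOLN2 (-0.067). With the GC correction, alone or with the replicate block, it turned for TRPM4 (-0.17) and MCOLN1 (-0.062). TRPM2 ranged from -0.10 to 0.042 and TRPV5 from -0.12 to 0.33 with 1 library left out.

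Samples with the same number did not vary together (correlations of -0.00035, -0.0417 and -0.0962 for replicates 1, 2 and 3), and none of the numbers pairs the samples by label. A replicate block gave 7174 genes, and the split of TRP channels and TRPM8 partners became 3 higher and 3 lower. Depth limits UGT2B17, UGT2B7 and UGT2B28, whose libraries hold 0 to 37 reads.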
